A study of Mus musculus with 30 samples.

Results

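Contractile genes and target genes of the transcription regulators Yap and SRF were followed through exit from pluripotency and attempted return to it, in RNA-seq values of mouse secondary iPSCs. The 10 genes were chosen by name from the 22477 genes of the expression table. They are 6 genes of the contractile apparatus (Acta2, Tagln, Myl9, Cnn1, Tpm1 and Tpm2) and 4 genes known as Yap targets (Cyr61, Ctgf, Thbs1 and Ankrd1). All 10 were found, each in 1 row. The cells carry dox-inducible OSKM transgenes (Oct4, Sox2, Klf4 and c-Myc), GFP in the endogenous Nanog locus and a constitutive nuclear RFP, and all conditions share these alleles. Stock cells grew in medium with serum and LIF on a feeder layer of CF1 mouse embryonic fibroblasts (MEFs). The 30 samples make up 15 conditions of 2 replicates. Before withdrawal, cells were moved to N2B27 medium with LIF and 2i, the compounds CHIR99021 and PD0325901. In 7 conditions 2i/LIF had been withdrawn, in N2B27 medium, for 0, 24, 36, 48, 60, 72 or 96 h. The cells at 0 h were thus still in 2i/LIF. In the other 8, cells taken after 0, 24, 48 or 96 h were plated again and grew for 48 h in serum/LIF. Of these, 4 received no dox (–dox) and 4 received dox (+dox), in which dox switches OSKM on.

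Yap and its relative Taz (Wwtr1) are coactivators held out of the nucleus by the kinases of the Hippo pathway. On a stiff or spread attachment, or at low density, they enter the nucleus and bind DNA through Tead factors. SRF binds DNA at CArG boxes and works with the myocardin-related cofactors, which are released when actin polymerises, or with the ternary complex factors downstream of growth signals. Both systems answer to actin tension and share targets such as Cyr61 and Ctgf. The contractile genes are best known from smooth muscle and myofibroblasts, and Yap is also expressed in pluripotent cells.

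Acta2 encodes smooth muscle alpha-actin and lies at chr19:34241090-34255590 (mm10, positions from Gencode M21). Tagln, at chr9:45929619-45936058, encodes the actin-binding protein transgelin. Myl9, at chr2:156775420-156781658, encodes the regulatory light chain of non-sarcomeric myosin, and Cnn1, at chr9:22099216-22109630, encodes calponin, which binds actin and restrains myosin. Tpm1, at chr9:67022590-67049406, and Tpm2, at chr4:43514711-43523765, encode tropomyosins, which wrap actin filaments. Cyr61 (now Ccn1, chr3:145646976-145649981) and Ctgf (now Ccn2, chr10:24595442-24598683) encode secreted matricellular proteins. Thbs1, at chr2:118111876-118127133, encodes thrombospondin-1, a matrix protein that can activate latent TGF-beta. Ankrd1, at chr19:36111961-36120099, encodes an ankyrin-repeat protein of the nucleus and the muscle sarcomere.

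The sequences before the transcription starts are shown because SRF and Tead factors are the DNA-binding partners of these pathways. RefSeq upstream sequences (GRCm38.p6) were at hand for 7 of the 10 genes, and not for Tagln, Ctgf and Thbs1. In the 250 bases before the start, CArG boxes (CC, then a core of A or T, then GG) and GGAATG, a Tead motif searched on both strands, were sought. A CArG box, allowing 1 other base in the core, was found before Acta2 and Myl9, and GGAATG before Acta2, Tpm1, Cyr61 and Ankrd1. Of 32851 upstream windows of the same length, 8.59% held such a CArG box, 1.47% held one with no other base, and 12.6% held GGAATG. Neither was found before Cnn1 and Tpm2. The matches describe letters in a window and are not evidence of binding. In the sequences, which run 5′ to 3′ on the strand of the gene, capitals mark the motifs.
Myl9, chr2:156775214-156775419, plus strand: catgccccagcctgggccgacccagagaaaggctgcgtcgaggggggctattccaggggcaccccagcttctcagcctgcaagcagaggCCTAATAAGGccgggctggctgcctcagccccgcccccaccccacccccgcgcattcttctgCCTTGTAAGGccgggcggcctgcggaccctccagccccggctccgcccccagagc
Cyr61, chr3:145649986-145650235, minus strand: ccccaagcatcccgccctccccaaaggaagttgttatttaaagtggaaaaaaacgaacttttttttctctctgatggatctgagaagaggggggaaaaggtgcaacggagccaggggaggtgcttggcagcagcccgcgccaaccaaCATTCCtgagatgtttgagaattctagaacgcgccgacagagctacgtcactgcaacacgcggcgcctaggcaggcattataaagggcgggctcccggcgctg
Acta2, first CArG box, chr19:34255438-34255467, minus strand: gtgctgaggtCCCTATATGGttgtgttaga
Acta2, second CArG box, chr19:34255388-34255417, minus strand: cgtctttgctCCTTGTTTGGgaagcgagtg
Ankrd1, first GGAATG, chr19:36120037-36120066, minus strand: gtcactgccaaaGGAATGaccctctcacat
Ankrd1, second GGAATG, chr19:36119950-36119979, minus strand: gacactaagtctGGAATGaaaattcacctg
The first Myl9 box has a pure A and T core and begins 161 bases before the RefSeq start, and the second, with 1 other base, begins 99 bases before it. The Acta2 boxes begin 84 and 34 bases before the start, each with 1 other base. Of the Acta2 window 217 bases, and of the Ankrd1 window all 250, lie in exons of Gencode M21, so only stretches of 30 bases around the motifs are given for these genes. Such exons also hold 193 bases of the Tpm1 window, its GGAATG among them. They hold 106 bases of the Tpm2 window, 44 of that of Myl9 and 37 of that of Cnn1, and none of that of Cyr61.

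Expression is given as FPKM (fragments per kilobase of transcript, scaled to the mapped fragments of the library), which is per length and can be set side by side between genes. The authors' table combines both replicates into 1 value per condition. No value therefore has a spread, no difference was tested, and neighbours in an order of levels cannot be told apart by their error. A gene is called higher, lower, risen or fallen here where its values differed at least 2-fold and the higher was at least 1 FPKM. Beside each count of the 10 genes stands the share of all genes with at least 1 FPKM in either condition that passed the same rule. The FPKM of a condition summed to between 603278 and 832607.

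The condition at 0 h of withdrawal stood apart in its fibroblast markers. The 20 listed markers, collagens, Postn, Dcn and others, summed to 915 FPKM there and to between 20.4 and 198 FPKM in the other 14 conditions, and 18 of them reached 1 FPKM at 0 h. The 10 pluripotency markers also had their highest sum there, with Nanog at 227 FPKM, its highest value. Pou5f1, which encodes Oct4, was at 199 FPKM there and was highest in cells re-seeded from 0 h +dox, at 425 FPKM. The surface under the RNA-seq cells is not stated. In the colony-forming assay, per the methods, cells lost 2i/LIF on gelatin and were then plated on MEFs. Fewer cells of a type and less RNA per cell cannot be told apart in these values. Counts that rest on 0 h are therefore also given with 24 h as the start, except where no comparison without 0 h exists.

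The contractile genes rose during withdrawal, but not together. Between 0 and 96 h, 8 of the 10 genes rose and none fell, against 16.8% of 13394 genes higher and 16.4% lower. The 6 contractile genes were among the 8, with a median log2 ratio of 3.59 against -0.02 over all genes. Of the Yap targets, Cyr61 and Ankrd1 rose, and Ctgf and Thbs1 ended within 1.2-fold of where they began. With 24 h as the start in place of 0 h, 9 of the 10 rose, all but Ctgf, against 20.5% of genes higher and 16.3% lower.

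Cnn1 had the largest ratio of 96 h to 0 h among the 10. It stood at 0.164, 0.466, 2.95, 7.87, 9.48, 12.3 and 10.1 FPKM at 0, 24, 36, 48, 60, 72 and 96 h, 61.2-fold higher at 96 h than at 0 h and 21.6-fold higher than at 24 h. It was all but silent in the first 24 h and near its plateau by 48 h. Myl9 ran the same early course, at 2.81, 9.38, 28.6, 59.6, 64.5, 49.0 and 37.8 FPKM. Its level peaked at 60 h and was lower again at 96 h by less than 2-fold.

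Tagln moved later. It was at 3.88, 4.98 and 4.50 FPKM at 0, 24 and 36 h, and then at 14.9, 42.5, 81.7 and 104.5 FPKM at 48, 60, 72 and 96 h, a 26.9-fold rise over the whole course. Its climb fell between 36 and 72 h, after most of that of Cnn1 and Myl9. The tropomyosins were the abundant members and climbed by smaller steps. Tpm1 stood at 66.8, 72.6, 123, 192, 326, 459.6 and 748 FPKM, and only 153 genes of the table reached a higher maximum in any condition. No single step of Tpm1 passed 2-fold, although it ended 11.2-fold above its start. Tpm2 stood at 13.96, 11.2, 26.2, 45.4, 59.8, 54.1 and 96.8 FPKM, with a 2.33-fold step from 24 to 36 h.

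Acta2 went up, down and up again. It stood at 8.65, 24.4, 7.66, 14.2, 19.5, 32.4 and 97.9 FPKM, so that it rose 2.82-fold by 24 h, fell 3.18-fold by 36 h, and rose 3.02-fold in the last interval. The 24 h value stands above both of its neighbours, and with 1 value per condition this excursion has no replicate check. No other contractile gene fell past 2-fold between consecutive timepoints.

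**Figure D1:**
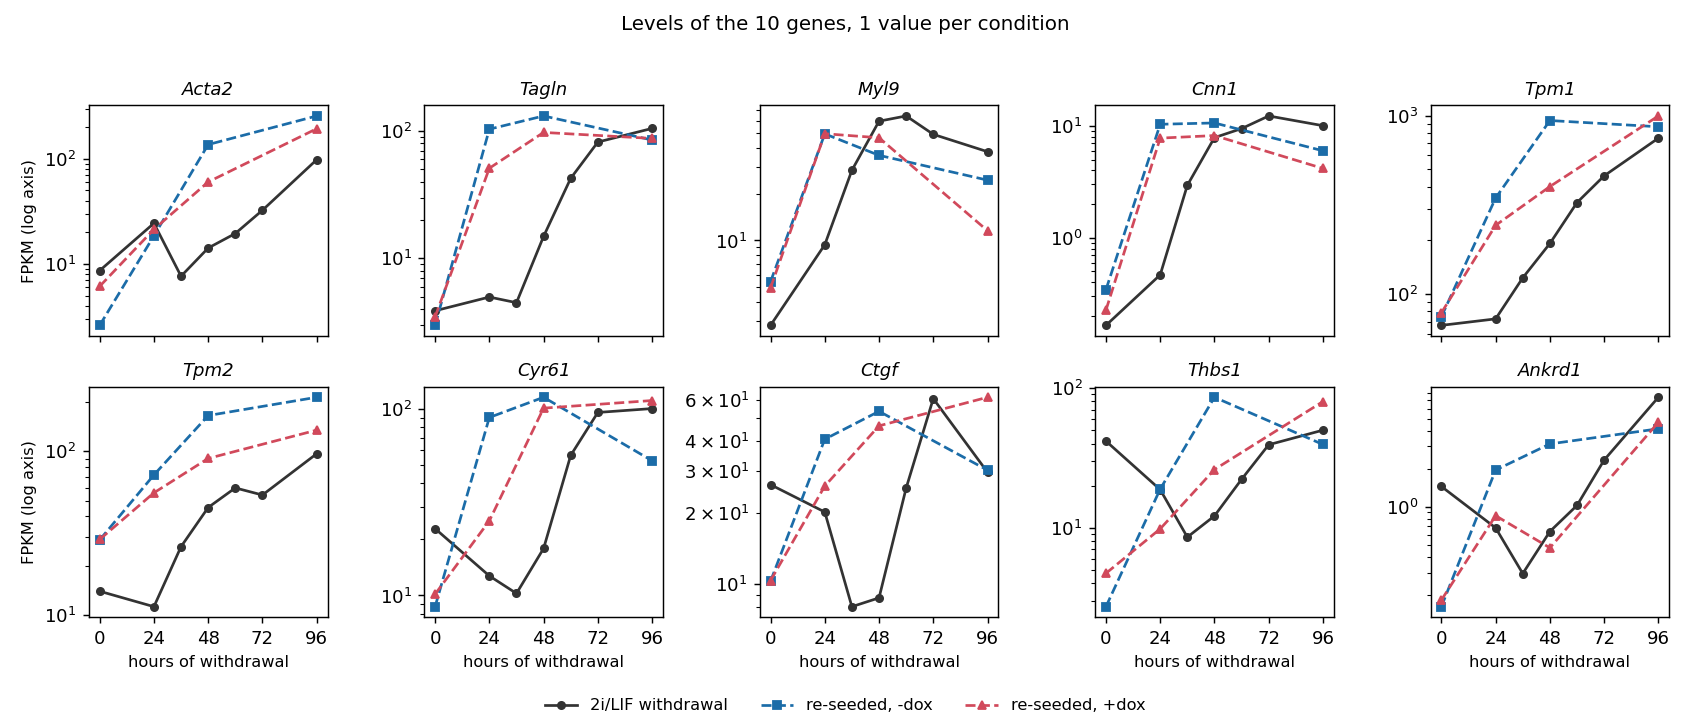
FPKM (log axis, scaled for each gene) of the 10 genes against hours of 2i/LIF withdrawal. Black circles are withdrawal, blue squares the same cells re-seeded for 48 h –dox and red triangles +dox, 1 value per condition with both replicates combined. Myl9 and Cnn1 climb by 48 h, Tagln by 72 h, the Yap targets dip to 36 h before they climb, and most re-seeded values from 24 and 48 h lie above the withdrawal values of the same hour.

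The Yap targets fell first and rose later. Cyr61 stood at 22.8, 12.7, 10.3, 17.9, 56.5, 96.0 and 100.7 FPKM over the 7 timepoints, with a 3.16-fold step from 48 to 60 h. Ctgf stood at 26.2, 20.1, 8.003, 8.72, 25.4, 60.7 and 29.6 FPKM. It rose 2.91-fold from 48 to 60 h and 2.39-fold from 60 to 72 h, and fell 2.05-fold after that. Thus both Ccn family genes climbed from 48 h, and they parted after 72 h, when Cyr61 held its level.

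Thbs1 stood at 41.6, 18.7, 8.55, 12.1, 22.2, 39.2 and 49.8 FPKM, so that its fall to 36 h was made up by 96 h without a single rising step of 2-fold. Ankrd1 was the lowest of the 10 at 96 h, at 1.45, 0.679, 0.295, 0.635, 1.02, 2.34 and 7.37 FPKM over the course. It rose 2.29-fold from 60 to 72 h and 3.15-fold from 72 to 96 h. For all 4 Yap targets the lowest withdrawal value was that of 36 h. For the contractile genes it was that of 0 h in 4, of 24 h in Tpm2 and of 36 h in Acta2.

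The Yap targets fell up to 36 h, and so did the summed fibroblast markers. The summed pluripotency markers fell over the same hours too, from 1658 to 416 FPKM. Col1a1 stood at 229, 21.0 and 5.11 FPKM at 0, 24 and 36 h, Col3a1 at 201, 11.96 and 3.40, Col1a2 at 160.0, 14.1 and 3.28, and Postn, a matrix protein of fibroblasts, at 102, 9.69 and 2.18. From 0 to 24 h, 17 of the 18 fibroblast markers tested fell and 1 rose. From 36 h the sums parted. The summed fibroblast markers stood at 44.9 FPKM at 36 h and 50.1 at 96 h, while the 4 Yap targets together went from 27.1 to 188 FPKM and the 6 contractile genes from 193 to 1095 FPKM. The fibroblast sum held rises and falls of single markers. From 72 to 96 h, 6 of 13 markers tested rose and 1 fell, against 5.1% of all genes higher and 5.01% lower. The part of fibroblast RNA in the early levels of the Yap targets was not tested.

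**Figure D2:**
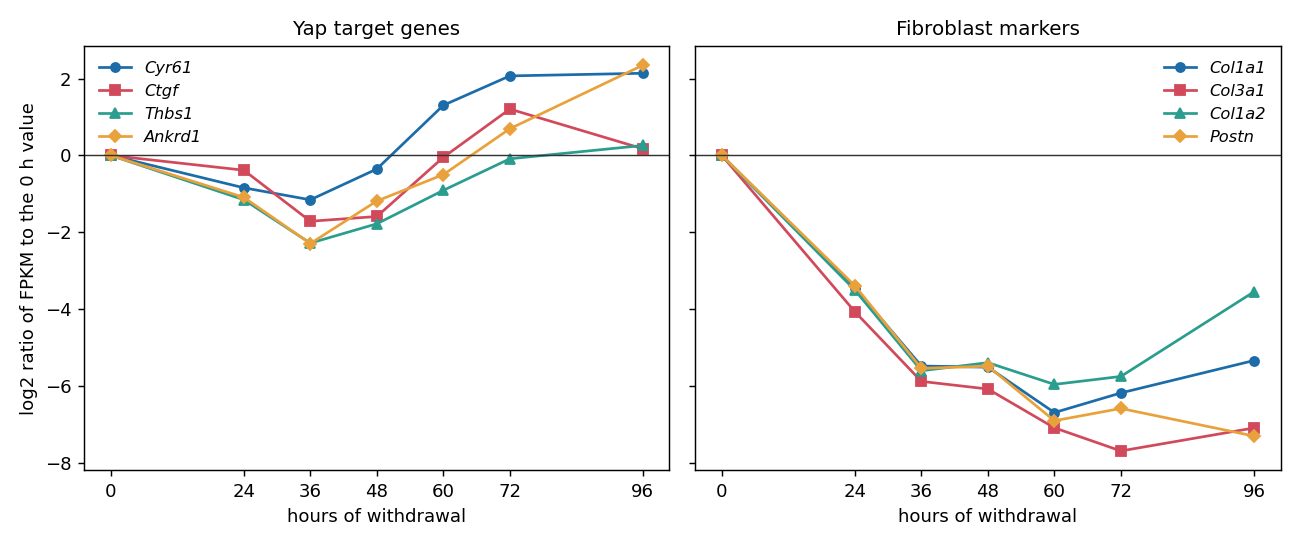
Log2 ratio of FPKM to the value at 0 h (y axis) against hours of withdrawal (x axis), for the 4 Yap targets (left) and for 4 fibroblast markers (right), 1 value per condition. Both sets fall up to 36 h, the markers much further, and after 36 h the Yap targets climb back to or above their 0 h level while the markers stay far below theirs.

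Step by step, the genes that moved changed from interval to interval. From 0 to 24 h Acta2 and Myl9 rose (8.64% of all genes were higher) and Thbs1 and Ankrd1 fell (14.3% were lower). From 24 to 36 h Myl9, Cnn1 and Tpm2 rose, against 5.44% of genes, and Acta2, Ctgf and Thbs1 fell, against 6.28%. From 36 to 48 h Tagln, Myl9 and Cnn1 rose, against 2.78%, and none fell, against 2.01%. All genes that rose up to 48 h were contractile genes. From 48 to 60 h the 3 that rose were Tagln, Cyr61 and Ctgf, against 4.97%, and none fell, against 4.27%. From 60 to 72 h Ctgf and Ankrd1 rose, against 2.97%, and none fell, against 2.27%. In the last interval Acta2 and Ankrd1 rose, against 5.1%, and Ctgf fell, against 5.01%. From 48 h on, Yap targets were among those that rose in every interval. Ctgf moved past 2-fold in 4 of the 6 intervals and Tpm1 in none.

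Other genes of the pathways rose in number over the same course. Of 26 further SRF and actomyosin genes tested, of 28 listed, 14 rose between 0 and 96 h and none fell, with a median log2 ratio of 1.01 against -0.02 over all genes. Pdlim7, a LIM protein of actin fibres, went from 15.1 to 191 FPKM, and Cald1, which encodes caldesmon, from 37.5 to 195 FPKM. Actb went from 1041 to 2098 FPKM and Myl12a, another myosin light chain, from 239 to 499 FPKM, both just past 2-fold. Against 24 h, 13 of 27 rose and 2 fell.

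Of 18 further Yap targets tested, of 20 listed, 11 rose and 4 fell. Amotl2, a junction-associated inhibitor of Yap, went from 35.0 to 155 FPKM, Igfbp3 from 6.21 to 44.8, Ajuba, a LIM protein that restrains Lats kinases, from 19.4 to 80.5, and F3, which encodes tissue factor, from 5.59 to 11.9. Those that fell were Ccdc80, from 16.6 to 0.749 FPKM, Myof, from 10.9 to 1.37, Dock5, from 9.10 to 4.43, and Axl, from 5.13 to 2.53. Against 24 h, 8 rose and 3 fell, and the number that fell is near the 16.4% and 16.3% of all genes lower in these comparisons.

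The regulators differed in how far they moved. Yap1 was between 47.2 and 66.1 FPKM at all 7 timepoints, and was named after its values were seen, as were the 4 genes that follow. Wwtr1 went down and up like the Yap targets, at 21.5, 11.1, 5.82, 6.68, 15.2, 21.3 and 25.3 FPKM. Tead1 did likewise, at 27.5, 12.9, 11.4, 13.2, 25.1, 36.9 and 48.1 FPKM. Srf stood at 7.60 FPKM at 0 h and between 15.9 and 27.5 FPKM later. Mkl1, which encodes a myocardin-related SRF cofactor, stood between 5.54 and 9.21 FPKM.

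Of the 18 genes of the Hippo and Yap machinery, 6 rose from 0 to 96 h and 1 fell. Over all genes, 16.8% were higher and 16.4% lower from 0 to 96 h, and 20.5% and 16.3% against 24 h. Tead2 went from 63.9 to 132 FPKM, Tead3 from 2.80 to 16.5, Vgll3, a Tead cofactor, from 2.86 to 13.4, and Amot, which binds Yap at junctions, from 0.743 to 10.8. Tead4 fell from 17.4 to 6.96 FPKM. Among 5 SRF cofactors tested, 1 fell, Elk3, from 6.04 to 1.55 FPKM, and none rose. That 1 of 5 is near the share of all genes lower. Of 9 TGF-beta ligands, receptors and targets, 6 fell and none rose, among them Fn1, which encodes fibronectin, from 294 to 33.5 FPKM. Against 24 h, 8 of the 18 Hippo and Yap genes rose and 1 fell, 2 of the 5 SRF cofactors fell, and the TGF-beta list had 3 lower and 1 higher. Of 6 immediate early SRF genes tested, 4 rose, with Egr1 from 0.614 to 9.24 FPKM, Fos from 1.66 to 10.9 and Junb from 8.95 to 19.2. Against 24 h, 2 of the 6 rose, and Egr1 was at 11.2 FPKM at 24 h, above its value at 96 h.

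Genes tied to smooth muscle differed in level. Named after their values were seen, Myh11, the smooth muscle myosin heavy chain, stayed between 0.0261 and 0.255 FPKM, and Myocd, the cofactor myocardin, between 0 and 1.14 FPKM over the 15 conditions. Lmod1, a leiomodin of smooth muscle, went from 0.179 to 5.603 FPKM between 0 and 96 h and Smtn, which encodes smoothelin, from 12.2 to 37.2 FPKM, both also named after their values were seen. Des, which encodes the muscle filament desmin, went from 6.39 to 19.1 FPKM. Acta1, the actin of skeletal muscle, went from 0.457 to 100.5 FPKM, and Tnnc1, a troponin of cardiac and slow muscle, from 0.348 to 47.2 FPKM. Actc1 was listed at 0 at 0 h and stood at 5.71 FPKM at 96 h. Of 8 muscle markers tested, 4 rose and 2 fell, and against 24 h, 5 of 7 rose and 1 fell, beside the same shares of all genes. Those that fell from 0 h were Tnni1, a troponin, from 19.4 FPKM to a listed 0, and Myl7, a myosin light chain, from 5.32 to 1.09 FPKM. Tnni1 was already at 0.171 FPKM at 24 h.

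The next comparison asked how dox changed the genes in cells re-seeded after different lengths of withdrawal. Its direction depended on the gene and on the hour of re-seeding. The targets Cyr61, Thbs1 and Ankrd1 were lower +dox after 24 or 48 h of withdrawal, and Cyr61, Ctgf and Thbs1 were about 2-fold higher after 96 h.

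In cells re-seeded from 0 h, 1 of the 10 genes differed. Acta2 stood at 2.61 FPKM –dox and 6.13 FPKM +dox, a 2.35-fold difference, against 3.62% of genes higher and 5.61% lower. With 1 FPKM added to both values the difference was under 2-fold. Tagln (2.99 and 3.48 FPKM) and Tpm1 (74.6 and 78.5) were within 1.2-fold of each other.

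In cells re-seeded from 24 h, 3 genes were lower +dox and none higher, against 3.4% of genes lower and 2.87% higher. Cyr61 stood at 90.2 FPKM –dox and 25.2 FPKM +dox, a 3.59-fold difference. Ankrd1 stood at 1.95 and 0.848 FPKM, a 2.30-fold difference, and Tagln at 103 and 50.9 FPKM, 2.02-fold, just past the threshold. Thbs1 missed it at 18.9 and 9.80 FPKM, and Ctgf stood at 40.9 and 25.9 FPKM. Myl9 was level at 49.3 and 49.4 FPKM. The median log2 ratio of the 4 Yap targets was -1.03 and that of the 6 contractile genes -0.39, against 0.02 over all genes.

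In cells re-seeded from 48 h, 4 genes were lower +dox and none higher, against 6.46% lower and 6.56% higher. Ankrd1 stood at 3.14 FPKM –dox and 0.472 FPKM +dox, a 6.67-fold difference, and Thbs1 at 85.7 and 26.1 FPKM, 3.29-fold. Tpm1 stood at 938 and 400.4 FPKM, 2.34-fold, and Acta2 at 136 and 60.2 FPKM, 2.27-fold. Cyr61, the most changed gene at 24 h, stood at 116 and 101 FPKM here, and Ctgf at 53.6 and 46.5 FPKM.

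In cells re-seeded from 96 h, 3 genes were higher +dox and 1 lower, against 6.67% higher and 11.1% lower. Cyr61 stood at 52.9 FPKM –dox and 111 FPKM +dox, 2.10-fold, Ctgf at 30.2 and 61.5 FPKM, 2.03-fold, and Thbs1 at 39.4 and 79.9 FPKM, 2.03-fold. Myl9 was lower, at 24.7 and 11.6 FPKM, 2.13-fold. All 4 lie just past 2-fold. When the conditions were scaled to an equal sum of FPKM, none of the 3 was 2-fold higher, since that scaling moved every log2 ratio at 96 h by -0.18. Ankrd1 stood at 4.14 and 4.67 FPKM, Acta2 at 255 and 193 FPKM and Tagln at 84.7 and 87.2 FPKM, and the contractile genes other than Myl9 differed by less than 2-fold.

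**Figure D3:**
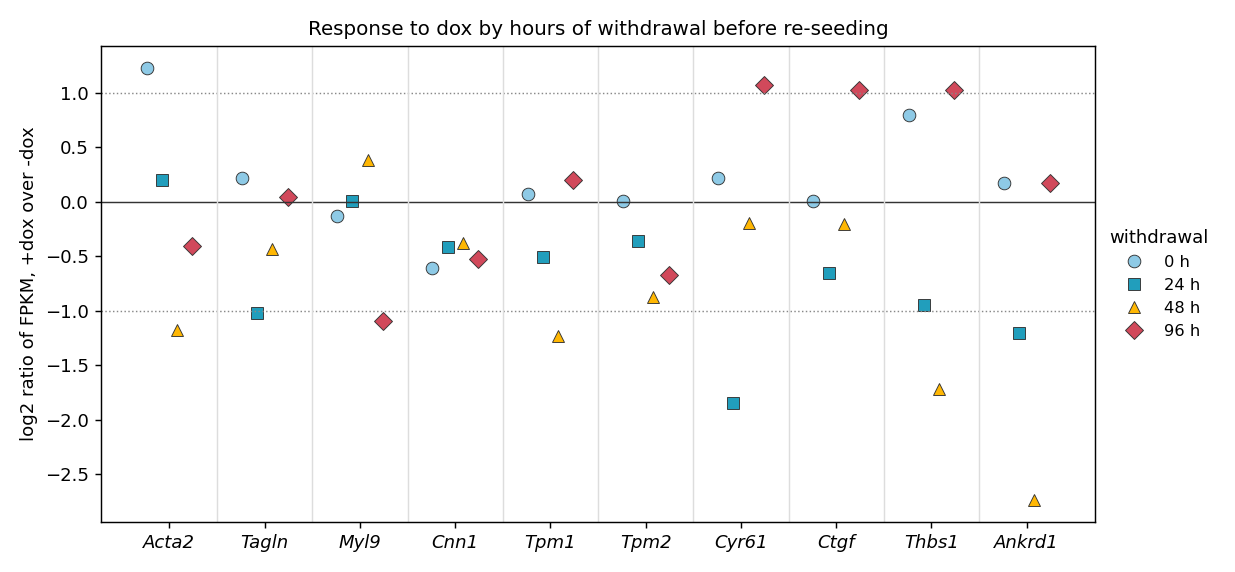
Log2 ratio of FPKM +dox over –dox (y axis) for the 10 genes (x axis), with markers for 0, 24, 48 and 96 h of withdrawal before re-seeding. Dotted lines are 2-fold, and each marker is 1 ratio of 2 conditions with no error. Most 24 and 48 h markers lie below 0, and Cyr61, Ctgf and Thbs1 lie just above the upper line at 96 h.

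Counts of the other pathway lists read against the shares of all genes given above for each hour. Of the further Yap targets, 4 of 16 were lower at 24 h and 7 of 18 at 48 h, and none was higher at either, while 3 of 19 were higher and 3 lower at 96 h. Igfbp3 stood at 42.4 FPKM –dox and 20.5 +dox at 24 h, and at 123 and 26.6 FPKM at 48 h. Amotl2 stood at 110.8 and 54.2 FPKM at 24 h, and F3 at 29.0 and 8.74 FPKM at 48 h. At 96 h Ptpn14, a phosphatase that binds Yap, was higher +dox, at 25.0 and 58.3 FPKM, and Tgfb2 lower, at 19.1 and 3.52 FPKM.

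Vgll3 and Amot were lower +dox at 3 of the 4 hours. Vgll3 stood at 7.63 and 2.52 FPKM at 24 h, 28.9 and 7.45 at 48 h and 61.4 and 21.7 at 96 h. Amot stood at 4.49 and 1.85 FPKM at 24 h, 16.8 and 3.48 at 48 h and 34.9 and 15.5 at 96 h. The Hippo and Yap list had 2, 3 and 3 of 18 genes lower at these hours, and 1 higher, Tead4 at 96 h. Of the further SRF and actomyosin genes, 2 of 26 were lower at 24 h, 1 lower and 1 higher of 26 at 48 h, and 3 of 27 lower at 96 h, which is at or below the share over all genes at 48 and 96 h. Tgfb1i1, which encodes a focal adhesion protein, was lower at each of these hours, at 34.6 FPKM –dox and 14.2 +dox at 96 h.

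Genes listed as markers of cell types moved with dox as well. Fibroblast markers were lower +dox in 8 of 12 tested at 48 h and in 11 of 16 at 96 h, with 1 higher at each hour. Col1a2 stood at 86.0 FPKM –dox and 13.2 +dox and Col1a1 at 33.2 and 3.47 FPKM at 96 h. Summed over the 20 markers, the fibroblast level was 47.8 FPKM –dox and 34.9 +dox at 48 h and 198 and 53.2 FPKM at 96 h. Pluripotency markers were higher +dox in 8 of 10 at 48 h, with Esrrb at 8.31 and 56.2 FPKM. Among the 8 were Pou5f1, Sox2 and Klf4, named because the dox-inducible transgenes also encode them. Whether their values include transgene RNA is not stated. At 0 h none of the 10 was higher or lower, at 24 h 1 was higher, and at 96 h 4 were higher and 3 lower. Of 8 endothelial markers listed, 4 were tested at 48 h, and all 4 were higher +dox. Tek stood at 1.03 and 12.5 FPKM and Pecam1 at 2.05 and 11.3 FPKM. The others were under 1 FPKM at 48 h. Cdh5 (0.244 and 0.0482 FPKM) and Kdr (0.782 and 0.166 FPKM) were lower +dox, and Emcn and Erg were listed at 0. Pecam1 was highest in cells re-seeded from 0 h –dox, at 56.6 FPKM. At 96 h, 2 endothelial markers were higher and 2 lower. At 96 h Cyr61, Ctgf and Thbs1 were just past 2-fold higher in the condition with the lower fibroblast sum. The part of any cell type in the differences of the 10 genes was not tested.

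The 4 –dox conditions were next set against the withdrawal condition from which each had been re-seeded. These comparisons share the –dox conditions with those of dox. From 0 h, re-seeding went with lower Yap targets, and from 24 and 48 h with higher levels of most of the 10 genes.

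From 0 h, 5 genes were lower after re-seeding –dox and 1 higher, against 10.1% lower and 12.0% higher. Thbs1 went from 41.6 to 2.72 FPKM, 15.3-fold, Ankrd1 from 1.45 to 0.161, 8.98-fold, Acta2 from 8.65 to 2.61, 3.31-fold, Cyr61 from 22.8 to 8.71, 2.62-fold, and Ctgf from 26.2 to 10.3 FPKM, 2.56-fold. Tpm2 went from 13.96 to 28.8 FPKM, 2.06-fold. The summed fibroblast markers went from 915 to 20.4 FPKM between the same conditions. The comparison cannot be made without the 0 h condition, and it also sets serum/LIF against 2i/LIF.

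From 24 h, 8 genes were higher after re-seeding and none lower, against 14.9% higher and 10.6% lower. Cnn1 went from 0.466 to 10.4 FPKM, 22.3-fold, Tagln from 4.98 to 103 FPKM, 20.7-fold, and Cyr61 from 12.7 to 90.2 FPKM, 7.08-fold. Acta2 (24.4 and 18.5 FPKM) and Thbs1 (18.7 and 18.9 FPKM) did not move past 2-fold. The fibroblast sum was 92.9 FPKM before and 27.1 FPKM after.

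From 48 h, 8 genes were again higher and none lower, against 15.3% higher and 11.5% lower, but they were not the same 8. Acta2 went from 14.2 to 136 FPKM, 9.62-fold, and Thbs1 from 12.1 to 85.7 FPKM, 7.07-fold, while Myl9 (59.6 and 35.8 FPKM) and Cnn1 (7.87 and 10.6 FPKM) stayed within 2-fold. From 96 h, Acta2 (97.9 to 255 FPKM, 2.61-fold) and Tpm2 (96.8 to 214 FPKM, 2.22-fold) were higher and none lower, against 12.4% higher and 11.2% lower. Here the fibroblast sum rose from 50.1 to 198 FPKM.

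Time itself passed during re-seeding, so the –dox conditions were also set against withdrawal of the same total length, a comparison chosen after the values were seen. After 24 h of withdrawal and 48 h of re-seeding, Myl9 stood at 49.3 FPKM and at 72 h of withdrawal at 49.0 FPKM. Tagln stood at 103 and 81.7 FPKM, Cyr61 at 90.2 and 96.0, and Cnn1 at 10.4 and 12.3 FPKM. Only Thbs1 differed past 2-fold, at 18.9 against 39.2 FPKM, where 4.89% of genes were lower and 5.4% higher.

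After 48 h of withdrawal and 48 h of re-seeding, 1 gene differed from 96 h of withdrawal, Ankrd1, at 3.14 against 7.37 FPKM, with 6.51% of genes lower and 6.36% higher. Cnn1 stood at 10.6 and 10.1 FPKM and Myl9 at 35.8 and 37.8 FPKM. In both comparisons the 1 of 10 genes that differed is near the share of all genes that did. The pluripotency markers were higher after re-seeding in 8 of 10 at both hours. Cells re-seeded from 0 h did otherwise. Of the 10 genes 7 were lower than at 48 h of withdrawal and none higher, against 12.1% lower and 17.6% higher, with Cnn1 at 0.343 against 7.87 FPKM, Myl9 at 5.39 against 59.6 FPKM and Acta2 at 2.61 against 14.2 FPKM.

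**Figure D4:**
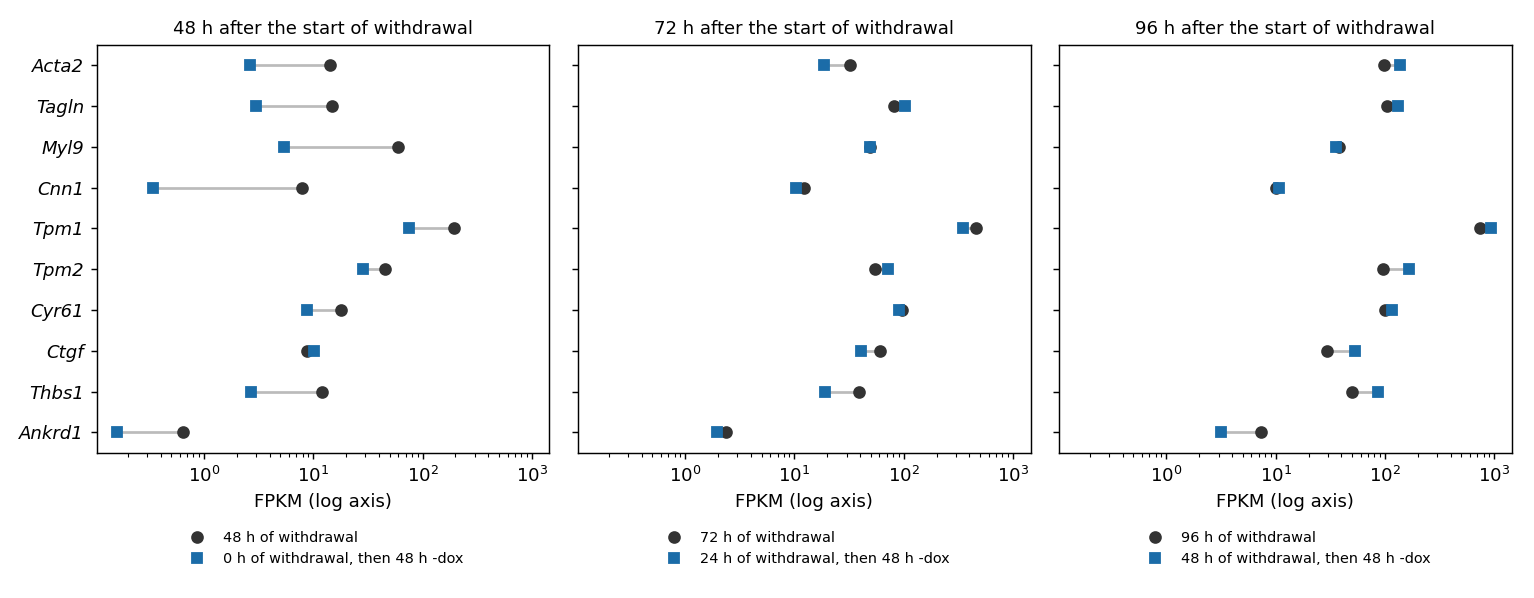
FPKM (log axis) of the 10 genes in withdrawal for 48, 72 or 96 h (black circles) and after re-seeding for 48 h –dox from 0, 24 or 48 h (blue squares), 1 value per condition, with a line joining the values of a gene. In the first panel 8 genes lie past 2-fold below withdrawal, Ankrd1 with both values under 1 FPKM, and in each of the others 9 of 10 pairs lie within 2-fold.

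Across the 15 conditions the genes fell into looser and tighter company. On log2(FPKM + 0.1), Pearson's r was 0.94 between Cyr61 and Tagln, between Tagln and Tpm1, between Tpm1 and Tpm2 and between Myl9 and Cnn1, and 0.90 between Cyr61 and Ctgf. It was 0.38 between Acta2 and Myl9 and 0.23 between Myl9 and Thbs1. Without 0 h, over 14 conditions, r was 0.96 between Cyr61 and Tagln, 0.30 between Acta2 and Myl9 and 0.42 between Myl9 and Thbs1. A Yap target thus ran closer to Tagln than Acta2 did to Myl9, although both of the latter are contractile genes. These values describe 15 conditions of 1 cell line that share a time course, and have no p.

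Among 9059 genes that reached 10 FPKM, those most like Acta2 over the 15 conditions were Tspan6 (r = 0.97), Meis3 (0.95), Cdk14 (0.95), Kctd10 (0.95) and Osbpl5 (0.94), each highest in cells re-seeded from 96 h –dox, as Acta2 was. Among those most like Cyr61 were Zc3hav1l (0.92), Cald1 (0.92), Fndc3c1 (0.91) and Amotl2 (0.91). Their highest values stood at 72 h of withdrawal for Zc3hav1l, in cells re-seeded from 48 h –dox for Fndc3c1 and Amotl2, and in those from 96 h +dox for Cald1.

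The highest value of each of the 10 genes lay in different conditions. Tagln (131 FPKM), Cyr61 (116) and Thbs1 (85.7) were highest in cells re-seeded from 48 h –dox, Acta2 (255) and Tpm2 (214) in those from 96 h –dox, and Tpm1 (996) and Ctgf (61.5) in those from 96 h +dox. Myl9 (64.5), Cnn1 (12.3) and Ankrd1 (7.37) were highest in withdrawal, at 60, 72 and 96 h. Of the 50-base stretches of the longest Acta2 transcript, 0.352% also occur unchanged in Actg1 and other genes. For the longest transcripts of the other 9 no such stretch was shared. Copies that differ by a base were not searched for. Tagln overlaps Pcsk7, Ctgf overlaps Gm15270 and Thbs1 overlaps Gm29233 on the opposite strand. These neighbours reached at most 6.15, 1.13 and 8.46 FPKM. Whether the authors counted by strand is not stated.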

How the data were processed

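Polyadenylated RNA of the 30 samples was sequenced on an Illumina HiSeq. Per the study's methods, the authors mapped reads to mm10 with TopHat 2.0.14, quantified Gencode M4 transcripts with Cufflinks 2.2.1 and combined the 2 replicates of each condition with Cuffdiff into the deposited FPKM values, 1 per gene and condition. The file is named for RPKM and the methods give FPKM. The library normalization was not given in the sources used here. The table also holds the authors' calls (groups of dynamic genes, and genes induced, repressed or unresponsive after dox), which were not used.

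Groups were taken from the sample titles. The values were used as deposited with Python 3.11.15, numpy 2.4.6 and pandas 2.3.3, and plotted with matplotlib 3.10.9. Median-ratio factors over 14518 genes were between 0.990 and 1.03. Genes were called at a ratio of at least 2 with the higher value at least 1 FPKM, in 19 comparisons, of which 4 were added after the values were seen (matched total time, and 96 h against 24 h). The depth is not known from FPKM, no replicate values are given, and no test was run. The calling step was tested on simulated data. Of each list beyond the 10 genes, at most 4 called genes are named, those with the highest maximum FPKM, and any other is marked. Some genes that this rule names are not reported here. The 10 genes and all lists were chosen with earlier results of these data known. Upstream sequences are from RefSeq, for the gene starts on GRCm38.p6. The 8 alternatives changed the fold, the minimum, the added FPKM and the scaling.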

Additional observations from a re-analysis of the deposited data

Results flagged for a closer look

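The difference between +dox and –dox changed sign with the hour of re-seeding for 3 of the 10 genes, past 2-fold in both directions. These pairs were picked out for that reason, each ratio is of 1 value to 1 value, and the difference between hours was not tested. Acta2 had a log2 ratio of +dox to –dox of 1.23 after 0 h of withdrawal and -1.18 after 48 h. Its levels after 0 h were 2.61 and 6.13 FPKM, far below those after 48 h. Cyr61 had a log2 ratio of -1.84 after 24 h and 1.07 after 96 h, and Thbs1 one of -1.72 after 48 h and 1.02 after 96 h. Both 96 h values lie just past 2-fold and were below it when the conditions were scaled to an equal sum of FPKM.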

How the results depend on the processing

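No paired analysis was possible because each condition has 1 value that combines both replicates, and for the same reason no replicate could be left out. Median-ratio scaling moved no count by over 1.5 times. Counts of the 10 genes that did move, each given as the count under the alternative after the count reported, were as follows. With a 1.5-fold threshold, those higher were 7 for 3 from 36 to 48 h, 6 for 3 from 48 to 60 h, 6 for 2 from 60 to 72 h, 4 for 2 from 72 to 96 h, 2 for 1 +dox at 0 h, 2 for 1 re-seeded from 0 h and 3 for 0 re-seeded from 48 h against withdrawal for 96 h. Those lower were 5 for 3 +dox at 24 h, 2 for 1 +dox at 96 h, 1 for 0 re-seeded from 48 h, 4 for 0 re-seeded from 96 h and 2 for 1 re-seeded from 24 h against withdrawal for 72 h. With a 3-fold threshold, those higher were 1 for 2 from 0 to 24 h, 1 for 3 from 36 to 48 h and from 48 to 60 h, 0 for 2 from 60 to 72 h, 0 for 1 +dox at 0 h, 0 for 3 +dox at 96 h, 0 for 1 re-seeded from 0 h and 0 for 2 re-seeded from 96 h. Those lower were 0 for 2 from 0 to 24 h, 1 for 3 from 24 to 36 h, 0 for 1 from 72 to 96 h, 1 for 3 +dox at 24 h, 2 for 4 at 48 h and 0 for 1 at 96 h, 3 for 5 re-seeded from 0 h, and 0 for 1 in both later comparisons at matched total time. With no minimum, 2 for 1 were higher re-seeded from 0 h. With a minimum of 5 FPKM, 1 for 2 was lower from 0 to 24 h and 1 for 2 higher from 60 to 72 h. With 1 FPKM required in both values, 1 for 2 was lower from 0 to 24 h. With 1 FPKM added, 1 for 2 was lower from 0 to 24 h, 1 for 2 higher from 60 to 72 h, and 0 for 1 higher +dox at 0 h and re-seeded from 0 h. With an equal sum of FPKM, 1 for 2 was lower from 0 to 24 h, 4 for 2 higher from 60 to 72 h, 0 for 3 higher +dox at 96 h and 2 for 1 higher re-seeded from 0 h. A threshold or minimum moves counts by its construction, and for the scaling the cause was not tested.

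The counts of 8 genes risen from 0 to 96 h and 8 higher after re-seeding from 24 and 48 h stayed within 1.5 times under all 8 alternatives, between 6 and 8. Depth limits the lowest values. Judged from the steps between low values, which are not counts, Cnn1 at 0 h stood at 6.1 steps, Ankrd1 at 36 h at 8.5 steps and Ankrd1 re-seeded from 48 h at 93.8 steps –dox and 14.4 +dox. A gene of 2 kb at 1 FPKM would stand at 70.1 to 95.3 steps in cells re-seeded from 0 or 24 h. In the other conditions it would stand at 28.6 to 38.2 steps, and comparisons between these sets of conditions cross that difference.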

Other observations

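The immediate early SRF genes, which answer to growth signals within minutes, were higher –dox than at 0 h of withdrawal in all 5 tested. Of all genes, 12.0% were higher and 10.1% lower. The 0 h cells were in 2i/LIF and the re-seeded cells in serum/LIF. Of the 6 contractile genes Tpm2 was higher and Acta2 lower, and all 4 Yap targets were lower. From 24 and from 48 h, 2 of 5 immediate early genes were higher and none lower, and 5 and 4 of the 6 contractile genes were higher. Of all genes, 14.9% and 15.3% were higher and 10.6% and 11.5% lower. Ier2 stood at 61.6 FPKM at 0 h of withdrawal and 135 FPKM after re-seeding –dox, and at 41.9 FPKM +dox. Junb stood at 8.95 FPKM at 0 h of withdrawal and 21.3 FPKM after re-seeding –dox.

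The TGF-beta list rose with re-seeding from 96 h, in 6 of 9 genes and with none lower, with Fn1 at 33.5 FPKM in withdrawal and 104 FPKM –dox, and Tgfbi at 1.72 and 16.1 FPKM. Ctgf, often used as a TGF-beta target too, stood at 29.6 and 30.2 FPKM in the same conditions. Fibroblast markers were higher there in 11 of 16 and lower in 3. Of all genes, 12.4% were higher and 11.2% lower in this comparison.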
